A study of Arabidopsis thaliana with 12 samples.

Results

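The genes described here are 60 Arabidopsis thaliana loci that encode proteins with a TIR (Toll/interleukin-1 receptor) domain, listed by AGI locus number and followed in roots of 4 groups of seedlings. Of the 60 listed genes, 43 were measured on a probe set that lists a single gene in the platform annotation, 5 only on a probe set shared with another gene, and 12 had no listed probe set. These 43 stand among 13286 genes with such a probe set, and among 22746 probe sets tested in all. By the known build of the family, which the deposited files do not give, 15 of the 60 are short genes that code for a TIR domain alone or a TIR domain with a nucleotide-binding (NBS) domain, of which 12 were measured. The other 45 are full TIR-NBS-LRR receptors, which also carry leucine-rich repeats (LRR), of which 31 were measured. The list is spread unevenly over the genome, with 28 genes on chromosome 1, 5 on chromosome 2, 9 on chromosome 3, 4 on chromosome 4 and 14 on chromosome 5. These numbers describe the list, which was drawn up with earlier results of these arrays known. They are not a count of all TIR genes in the genome.

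TIR-NBS-LRR proteins are receptors inside the plant cell that detect pathogen effectors, or the damage effectors do to host proteins, and start a defence that can end in local cell death. Their TIR domains are enzymes that cut NAD+ into small signalling molecules, which are sensed by pairs of the lipase-like protein EDS1 with PAD4 or SAG101 and passed on to helper receptors of the ADR1 and NRG1 families. The short genes have the enzyme domain without the repeats that usually recognise the effector. Extracellular ATP is a damage signal in plants, and the lectin receptor kinase DORN1 is its receptor at the cell surface.

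The 12 one-colour arrays form 4 groups of 3 biological replicates: dorn1-1 roots in ATP, dorn1-1 roots in buffer, wild-type roots in ATP and wild-type roots in buffer. The dorn1-1 plants are Col-0 with a lesion, induced by the chemical mutagen EMS, in the lectin receptor kinase, and the wild type is a Col-0 line with a transgene for the calcium reporter aequorin. Whether the dorn1-1 plants carry aequorin too is not stated in the labels, and dorn1-1 stands here for 1 mutant allele. In all 4 groups the seedlings were 5 days old, were held overnight in the dark in 2 mM MES with 10 mM CaCl2, and were treated for 30 min before the roots were taken. Each replicate pools 120 seedlings from 1 well, so no value belongs to a single plant. For the ATP dose the sample titles give 100 mM, but the text on the treatment gives 100 µM. The mutated kinase gene was not analysed here. Values are log2 units of array signal, and a difference of 1 is a 2-fold change.

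Array medians ran from 6.07 to 6.17, and precision is limited by having 3 arrays in each group. Most TIR genes gave a low signal: the means over 12 arrays ran from 2.36 to 7.98, and 29 of the 43 fell below 5.32, the 40th percentile of all probe sets, where AT1G63880 lay just under at 5.32 and AT1G72950 just over at 5.34. The median spread within a group was an SD of 0.207 over the 43 genes and 0.180 over all probe sets. Levels of different probe sets were ranked by signal only, and no test was made between them. Related TIR genes are alike in sequence, so a probe set listed for 1 gene may also take up signal from a close relative.

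In wild-type roots, 2 of the 43 measured genes passed the test between ATP and buffer (adjusted p under 0.05, limma, adjusted over all 22746 probe sets), and both rose. They were AT3G44630 and AT5G22690, both TIR-NBS-LRR genes, and AT3G44630 lies in the part of chromosome 3 that holds RPP1, a known resistance gene against downy mildew. Over all probe sets 0.664% passed in this comparison, 0.479% as higher. None of the 12 measured short genes passed after adjustment, although 4 of the 7 TIR genes at least 2-fold higher in ATP (2.91% of all probe sets) were short.

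AT3G44630 read 6.97, 7.01 and 7.12 in wild-type ATP roots, against 5.96, 5.62 and 5.40 in wild-type buffer roots. All 3 ATP arrays lay above all 3 buffer arrays, and the ATP arrays lay close together. The difference was 1.37 ± 0.261 (log2, SE), or 2.59-fold, with an adjusted p of 0.0422 in limma. AT5G22690 read 7.04, 6.99 and 7.11 in wild-type ATP roots, against 6.45, 5.99 and 5.94 in wild-type buffer roots. Here too the ATP arrays stood apart, with the highest of the buffer arrays, replicate 1, nearer to them than the other 2. The difference was 0.92 ± 0.154, or 1.89-fold, at an adjusted p of 0.0260. Each passed in part of the 12 fits that left out 1 array, AT5G22690 in 7 of 12 and AT3G44630 in 3 of 12. No TIR gene passed without any one of the wild-type ATP arrays or without wild-type buffer replicate 2 or 3 (0.0264% to 0.492% of all probe sets). In contrast, 10 passed without dorn1-1 buffer replicate 1 (10.2%) and 4 without dorn1-1 buffer replicate 2 (1.58%). The count was 1 without wild-type buffer replicate 1 (0.193%), dorn1-1 buffer replicate 3 (0.391%) or dorn1-1 ATP replicate 1 (0.488%) or 3 (0.440%).

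A larger group of TIR genes had all their wild-type ATP arrays above the wild-type buffer arrays without passing the adjusted test. Of the 43, 22 had the ATP arrays apart on the high side, where 13.9% of all probe sets did, and 2 on the low side, where 19.2% did. At an unadjusted p under 0.05 there were 16 higher and 2 lower TIR genes, against 9.80% and 12.4% of all probe sets. The mean was higher in ATP for 33 of the 43, and for 44.8% of all probe sets. The median difference was 0.19 over the 43 genes, 0.53 over the 12 short genes and 0.13 over the 31 TIR-NBS-LRR genes, while the median of all probe sets was -0.03. These figures describe genes that were listed with earlier results of these arrays known, and no test over the list was made.

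The largest difference of a short gene was that of AT1G66090, a TIR-NBS gene, with 7.14, 6.82 and 7.22 in wild-type ATP roots, against 6.17, 5.36 and 4.04 in wild-type buffer roots. The ATP arrays were all higher, but the buffer arrays differed among themselves by more than 2 units. Its difference of 1.87 ± 0.497 had an adjusted p of 0.0871. The short genes AT1G72900, AT1G72940 and AT1G72920 had differences of 1.52, 1.40 and 1.39, with adjusted p of 0.109, 0.0699 and 0.111 in the same fit. Among TIR-NBS-LRR genes, AT5G58120 had a difference of 1.36 (adjusted p 0.0675), AT1G63880 of 1.25 (adjusted p 0.171), AT1G63750 of 0.99 (adjusted p 0.117) and AT2G14080 of 0.50 (adjusted p 0.143). The short genes AT4G09420 and AT1G57630 had differences of 0.70 and 0.60, with adjusted p of 0.171 and 0.193. Each difference in this paragraph was smaller with the photosynthesis covariate described below.

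Lower means in ATP were the less common case, and no such TIR gene passed. The TIR-NBS-LRR gene AT5G40100 read 6.24, 6.94 and 6.51 in wild-type ATP roots, against 7.12, 7.07 and 7.30 in wild-type buffer roots. Its neighbour in size of difference, AT1G72840, read 6.28, 6.50 and 6.47 in wild-type ATP roots, against 6.77, 6.77 and 6.92 in wild-type buffer roots. Both had all ATP arrays below all buffer arrays, with differences of -0.60 (adjusted p 0.165) and -0.40 (adjusted p 0.166). The next lowest, AT3G51560, AT1G72850, AT1G63730 and AT1G63740, had differences between -0.22 and -0.10 with overlapping arrays.

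**Figure D1:**
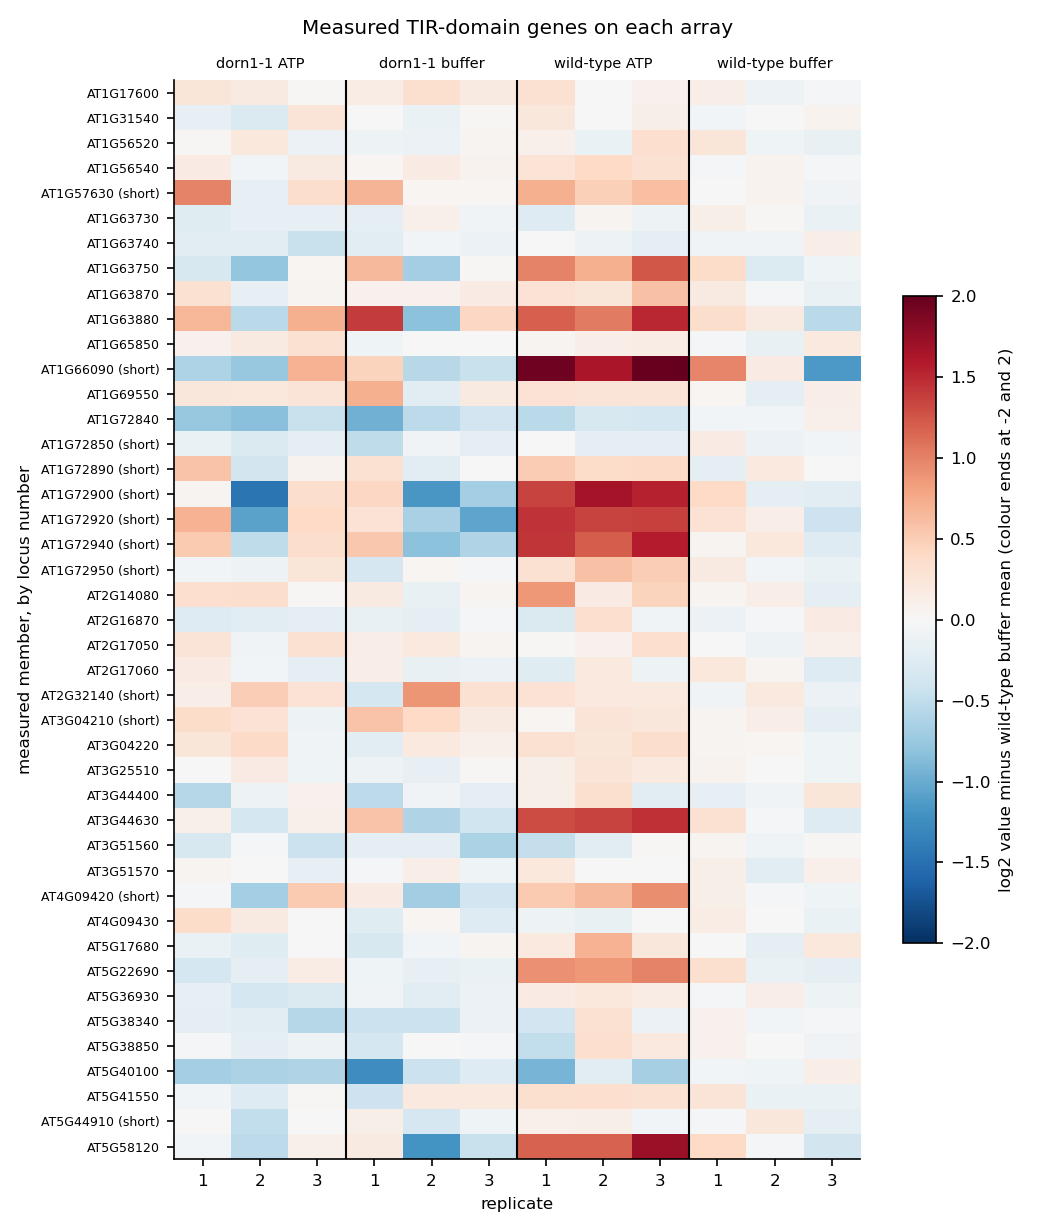
Heat map of the 43 measured TIR-domain genes (1 line each, in order of locus number, short genes marked) on the 12 arrays (columns, by group and replicate), coloured by the log2 value minus the gene's wild-type buffer mean, with the colour scale ending at -2 and 2. The red cells gather in the 3 wild-type ATP columns for AT1G66090, AT1G72900, AT1G72920, AT1G72940, AT3G44630 and AT5G58120, and dorn1-1 buffer replicate 1 and dorn1-1 buffer replicate 2 differ from each other for several genes.

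In dorn1-1 roots no TIR gene passed between ATP and buffer in limma, as was the case for every probe set on the array (0.00%). At an unadjusted p under 0.05 there was 1 of 43, the TIR-NBS-LRR gene AT4G09430, with a difference of 0.33 ± 0.129, beside 2.30% of all probe sets. The differences of the 43 genes ran from -0.34 for AT1G63750 to 0.47 for AT1G72920. Their median was 0.02, as was that of all probe sets. The count stayed at 0 in each of the 8 other settings and the 12 fits that left out 1 array.

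AT3G44630 read 5.76, 5.30 and 5.76 in dorn1-1 ATP roots, against 6.23, 5.06 and 5.27 in dorn1-1 buffer roots. AT5G22690 read 5.77, 5.93 and 6.28 in dorn1-1 ATP roots, against 6.03, 5.97 and 5.99 in dorn1-1 buffer roots. For both genes the ATP arrays overlapped the buffer arrays, with differences of 0.09 and -0.00 (log2). Among the short genes of the AT1G72900 run, differences were 0.12 for AT1G72900, 0.47 for AT1G72920 and 0.42 for AT1G72940, and the dorn1-1 arrays of these 3 overlapped too. The dorn1-1 ATP array of replicate 2 was the lowest of its group for these 3 genes, at 6.12, 4.85 and 7.16.

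The difference between the ATP change in dorn1-1 and that in the wild type was tested directly, and no TIR gene passed, with adjusted p of 0.576 or more for all 43. Over all probe sets 0.00879% passed, and at an unadjusted p under 0.05 there were 8 TIR genes, 7 of them with the smaller change in dorn1-1, beside 6.97% of all probe sets (2.68% in that direction). AT5G22690 had a change of -0.00 in dorn1-1 and 0.92 in the wild type, a difference of -0.93 with a 95% interval of -1.40 to -0.45 (unadjusted p 0.00117, adjusted p 0.576 in limma). AT3G44630 had a change of 0.09 in dorn1-1 and 1.37 in the wild type, a difference of -1.28 with an interval of -2.09 to -0.48 (adjusted p 0.660). AT1G66090 had the widest gap, a change of -0.04 in dorn1-1 and 1.87 in the wild type, with an interval of the difference from -3.45 to -0.38 (adjusted p 0.710). The other 4 on that side were AT1G63750, AT1G72900, AT5G58120 and AT1G56540, a homologue in the cluster of the white rust resistance gene WRR4, with differences of -1.33, -1.40, -1.03 and -0.32. AT4G09430 was the 1 gene on the other side, with a change of 0.33 in dorn1-1 and -0.08 in the wild type. The median of this difference was -0.21 over the 43 genes and 0.06 over all probe sets, and the 95% interval of a gene reached a median of 0.497 to either side.

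**Figure D2:**
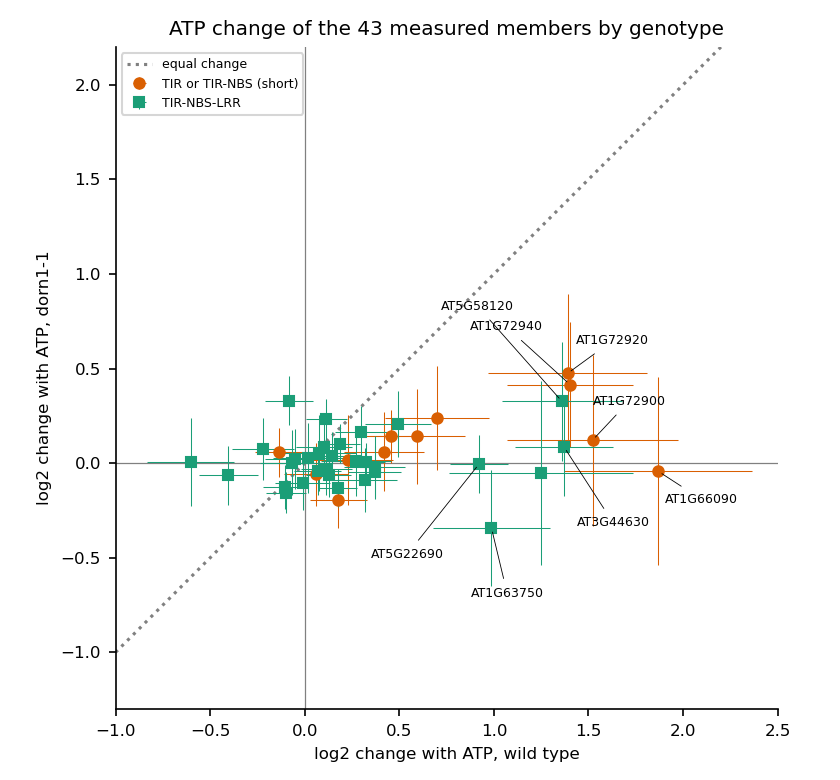
Log2 change with ATP in dorn1-1 (vertical axis) against that in the wild type (horizontal axis) for the 43 measured TIR-domain genes, with bars of 1 SE, circles for short genes, squares for TIR-NBS-LRR genes and a dotted line of equal change. The 8 labelled genes lie between 0.92 and 1.87 on the wild-type axis and between -0.34 and 0.47 on the dorn1-1 axis, below the line, and the genes of small change in both genotypes lie near the origin.

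Between dorn1-1 and wild-type roots in ATP, 8 of the 43 TIR genes passed in limma and all 8 fell in dorn1-1, while 6.68% of all probe sets passed, 2.00% as lower. They comprise 3 of the 12 short genes, AT1G66090, AT1G72900 and AT1G72940, and 5 of the 31 TIR-NBS-LRR genes, AT5G58120, AT3G44630, AT1G63750, AT5G22690 and AT5G36930. The first 7 were 2.08-fold (AT5G22690) to 4.28-fold (AT1G66090) lower, and AT5G36930 was 1.36-fold lower. With AT1G72920, which did not pass, 8 of the 43 were at least 2-fold lower, beside 0.919% of all probe sets. This comparison uses the same 3 wild-type ATP arrays as the ATP comparison in the wild type, so the 2 are not independent, and their values are set side by side below.

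AT1G66090 read 4.58, 4.43 and 5.88 in dorn1-1 ATP roots, against 7.14, 6.82 and 7.22 in wild-type ATP roots. The groups did not overlap, with dorn1-1 replicate 3 the nearest to the wild type. The difference was -2.10 ± 0.497 at an adjusted p of 0.0291, beside 1.87 between wild-type ATP and wild-type buffer. AT1G72900 read 7.63, 6.12 and 7.94 in dorn1-1 ATP roots, against 8.94, 9.25 and 9.12 in wild-type ATP roots. Its dorn1-1 arrays were spread widely with replicate 2 the lowest, and all lay below the wild type. It was 3.67-fold lower (-1.88 ± 0.453, adjusted p 0.0312). AT1G72940 read 8.19, 7.16 and 8.02 in dorn1-1 ATP roots, against 9.10, 8.89 and 9.24 in wild-type ATP roots. Again all dorn1-1 arrays were the lower ones, and it was 2.43-fold lower (-1.28 ± 0.332, adjusted p 0.0409). AT1G72920, the short gene between them, had a difference of similar size, -1.38 ± 0.422, with an adjusted p of 0.0741.

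Among the TIR-NBS-LRR genes, AT5G58120 read 5.40, 4.93 and 5.57 in dorn1-1 ATP roots, against 6.64, 6.63 and 7.18 in wild-type ATP roots. The groups were apart by about 1 unit, and it was 2.87-fold lower (-1.52 ± 0.316, adjusted p 0.0172). AT3G44630 read 5.76, 5.30 and 5.76 in dorn1-1 ATP roots, against 6.97, 7.01 and 7.12 in wild-type ATP roots. Its lowest wild-type array stood well above its highest dorn1-1 array, and the fall was 2.69-fold (-1.43 ± 0.261, adjusted p 0.0105). AT1G63750 read 4.33, 3.88 and 4.68 in dorn1-1 ATP roots, against 5.64, 5.36 and 5.89 in wild-type ATP roots. The groups were apart here too, with a 2.53-fold fall (-1.34 ± 0.307, adjusted p 0.0263).

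AT5G22690 had the lowest adjusted p of the 43 genes, 0.00555, with 5.77, 5.93 and 6.28 in dorn1-1 ATP roots, against 7.04, 6.99 and 7.11 in wild-type ATP roots. The 3 wild-type arrays were nearly equal and all above dorn1-1, and the difference was -1.06 ± 0.154. AT5G36930 had a small and even difference, with 3.14, 2.95 and 3.00 in dorn1-1 ATP roots, against 3.47, 3.50 and 3.45 in wild-type ATP roots. Its arrays were apart, and the difference was -0.44 ± 0.0996 (adjusted p 0.0245), at a signal so low that RMA tends to compress differences. Its difference between wild-type ATP and wild-type buffer was 0.18 (adjusted p 0.323).

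At an unadjusted p under 0.05, 14 of the 43 were lower in dorn1-1 ATP roots and none higher, where 7.63% of all probe sets were lower and 14.1% higher. The arrays were apart on the low side for 16 TIR genes and on the high side for none, beside 9.89% and 17.1% of all probe sets. The median difference was -0.22 over the 43 and 0.01 over all probe sets. With trend and robust moderation 5 of the 8 passed, beside 6.82% of all probe sets, and the short genes AT1G66090, AT1G72900 and AT1G72940 did not. Leaving out 1 array at a time, AT5G22690 passed in 12 of 12 fits and AT3G44630 and AT5G58120 in 10 of 12. The rest of the 8 passed in fewer of these fits. AT1G72940 passed only without dorn1-1 buffer replicate 1 or 2 or dorn1-1 ATP replicate 1. The count of 8 dropped to 1, AT5G22690, without wild-type ATP replicate 3 (272 of all probe sets passed, against 1519 with all arrays) or dorn1-1 ATP replicate 2 (354), and to 3 without wild-type ATP replicate 1 (1173) or 2 (579).

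**Figure D3:**
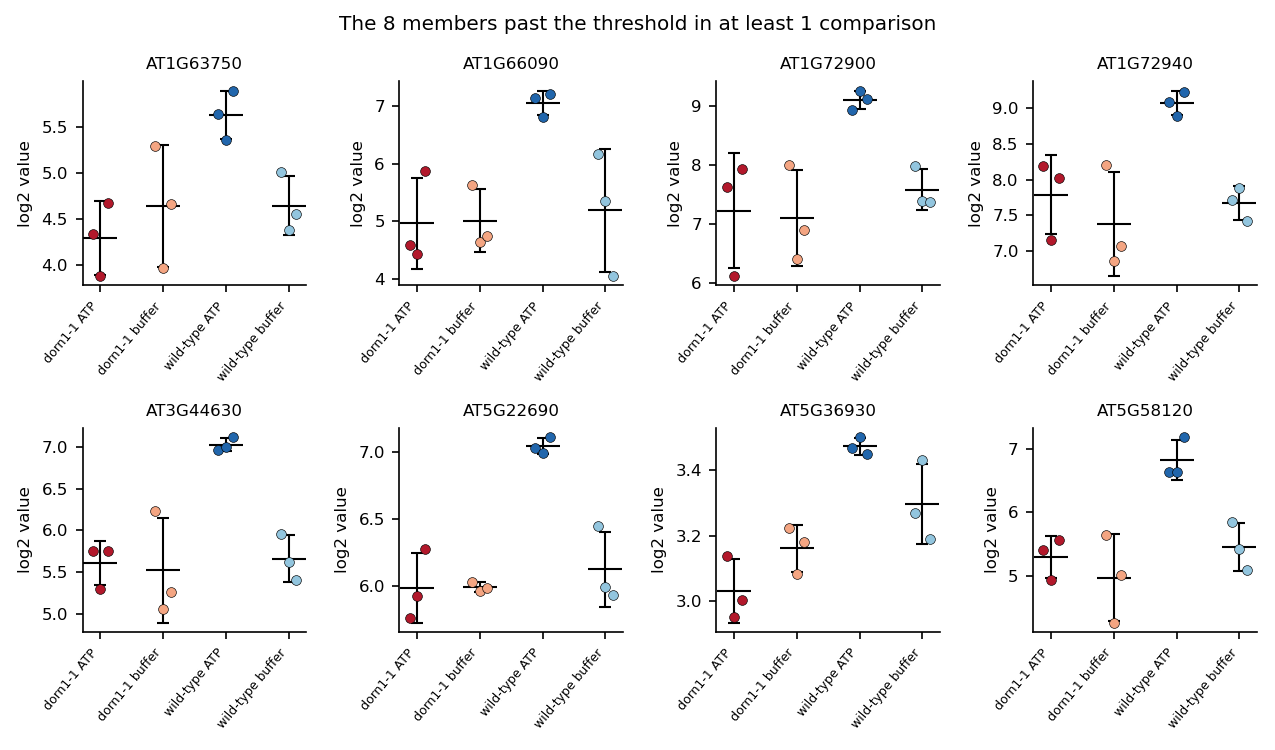
Log2 value on each array (points) with the group mean and SD (bars, n = 3) for the 8 TIR-domain genes that passed in at least 1 comparison, each on its own axis, with the groups in the order dorn1-1 ATP, dorn1-1 buffer, wild-type ATP and wild-type buffer. In all 8 panels the 3 wild-type ATP points lie above the 9 others, and in AT5G36930 the highest wild-type buffer point comes close to them.

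In buffer alone, no TIR gene passed between dorn1-1 and the wild type in limma, beside 0.0659% of all probe sets. At an unadjusted p under 0.05 there were 3 of 43 (12.9% of all probe sets): AT1G72840 with a difference of -0.62, AT5G40100 with -0.64 and AT3G04210, the short gene also named TN13, with 0.38. AT1G72840 read 5.86, 6.30 and 6.44 in dorn1-1 buffer roots, against 6.77, 6.77 and 6.92 in wild-type buffer roots. AT5G40100 read 5.93, 6.73 and 6.91 in dorn1-1 buffer roots, against 7.12, 7.07 and 7.30 in wild-type buffer roots. For both genes all dorn1-1 buffer arrays lay below the wild-type buffer arrays, as for 4 of the 43 TIR genes and 11.1% of all probe sets, with adjusted p of 0.169 and 0.289. These are the same 2 genes whose wild-type ATP arrays lay below their wild-type buffer arrays, and both statements rest on the same wild-type buffer arrays. The median difference in buffer was -0.11 over the 43 and -0.01 over all probe sets. With array weights in the fit, 3 TIR genes passed as lower in dorn1-1 buffer roots, where 11.3% of all probe sets passed, so their share was not above the background.

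Set against the other 9 arrays together, the 3 wild-type ATP arrays were the highest for 13 of the 43 TIR genes and the lowest for none, where 3.17% and 6.46% of all probe sets were. These comprised 6 of the 12 short genes and 7 of the 31 TIR-NBS-LRR genes: the 8 that passed above, and AT1G56540, AT1G72920, AT1G72950, AT4G09420 and AT5G41550. The count was 12 to 16 under the scaling and leave-one-out settings tried, which were chosen after the values were seen. In these settings 3.24% to 6.80% of all probe sets met the same rule, with 4.13% at the count of 12 and 6.16% at 16. As a median over the 43 genes, each taken relative to its wild-type buffer mean, dorn1-1 ATP arrays stood at 0.00, -0.20 and 0.03, dorn1-1 buffer arrays at -0.03, -0.14 and -0.04, and wild-type ATP arrays at 0.23, 0.26 and 0.23.

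The probe set shared by the TIR-NBS-LRR genes AT5G41740 and AT5G41750, neighbours on chromosome 5, had the lowest adjusted p of any probe set listing a TIR gene named here. It read 3.95, 4.41 and 4.28 in dorn1-1 ATP roots, 4.19, 3.97 and 4.39 in dorn1-1 buffer roots, 5.67, 6.20 and 6.04 in wild-type ATP roots, and 5.02, 4.37 and 4.19 in wild-type buffer roots. The wild-type ATP arrays were above all others, and the other 3 groups overlapped. For AT5G41740/AT5G41750 the value rose 2.72-fold with ATP in the wild type (1.44 ± 0.218, adjusted p 0.0202) and was 3.37-fold lower in dorn1-1 than in wild-type ATP roots (-1.75, adjusted p 0.00417). The dorn1-1 change of 0.03 and the wild-type change of 1.44 differed by -1.41, with a 95% interval of -2.08 to -0.74 and an adjusted p of 0.541. It passed without each array in turn in 9 of 12 fits for ATP in the wild type and 12 of 12 for the genotypes in ATP. Which of the 2 genes gave the signal cannot be told from the probe set. The shared probe set of AT1G27170/AT1G27180 and that listing AT5G46260 passed in no comparison, with differences between wild-type ATP and wild-type buffer of -0.21 and 0.49.

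Of the 43 measured genes, 22 lie in 7 groups of neighbours, taken as locus numbers at most 150 apart. The longest group holds 7 measured genes on chromosome 1, and its members differed from each other. In the wild type, the differences with ATP ran in locus order as -0.40 for AT1G72840, -0.13 for AT1G72850, 0.42 for AT1G72890, 1.52 for AT1G72900, 1.39 for AT1G72920, 1.40 for AT1G72940 and 0.46 for AT1G72950. The 3 largest belong to short genes that stand side by side among those measured. The short genes AT1G72850, AT1G72890 and AT1G72950 of this run had lower differences, and the first gene, AT1G72840, is a full receptor gene. The dorn1-1 differences of the 7 genes ran from -0.06 to 0.47.

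The second group on chromosome 1 holds 5 TIR-NBS-LRR genes, with wild-type differences of -0.10 for AT1G63730, -0.10 for AT1G63740, 0.99 for AT1G63750, 0.37 for AT1G63870 and 1.25 for AT1G63880, the last a gene of the RLM1 family of blackleg resistance. Their dorn1-1 differences ran from -0.34 to -0.05. The pair AT4G09420 and AT4G09430 also divided, with 0.70 for the short gene and -0.08 for the full receptor gene in the wild type. The other 4 pairs had wild-type differences between -0.22 and 0.32.

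**Figure D4:**
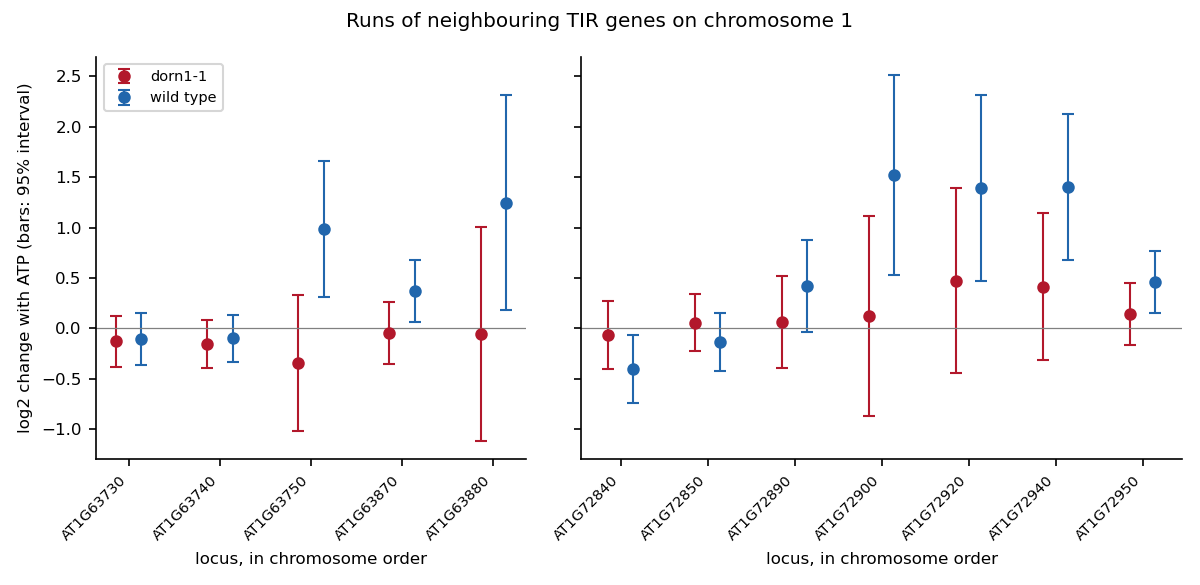
Log2 change with ATP (points, bars the 95% interval from limma) in dorn1-1 and in the wild type for the 5 measured genes from AT1G63730 to AT1G63880 and the 7 from AT1G72840 to AT1G72950, in locus order on chromosome 1. The wild-type points of AT1G72900, AT1G72920 and AT1G72940 lie between 1.39 and 1.52 and that of AT1G72840 at -0.40, and the dorn1-1 intervals all include 0.

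The remaining measured genes gave small differences. SOC3 (AT1G17600), a receptor gene known as the partner of the truncated receptor gene CHS1, read 2.80, 2.49 and 2.57 in wild-type ATP roots, against 2.63, 2.39 and 2.46 in wild-type buffer roots. The arrays overlapped, with a difference of 0.13 (adjusted p 0.562). CHS1 itself was among the 12 genes with no listed probe set, as were RPP1, WRR4, RLM1, VICTR and VICTL. Among the short genes AT5G44910, AT2G32140 and AT3G04210 the wild-type differences were 0.06, 0.23 and 0.18, none past an adjusted p of 0.05.

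The signalling partners of TIR receptors were hardly covered. Of 31 genes listed as EDS1 partners, helper receptors, receptor chaperones, receptor regulators and salicylic acid outputs, 3 were measured on a single-gene probe set, and none passed in any of the 5 comparisons in limma. SAG101, which pairs with EDS1, had differences of 0.40 between wild-type ATP and buffer (adjusted p 0.399) and -0.74 between dorn1-1 and wild type in ATP (adjusted p 0.122). EDS1B, a close copy of EDS1, had -0.52 in the wild type (adjusted p 0.166). SGT1A, a co-chaperone that helps receptors fold, had 0.48 in the wild type (adjusted p 0.110). At an unadjusted p under 0.05, SGT1A was higher (9.80% of all probe sets were) and EDS1B lower (12.4%) with ATP in the wild type. SAG101 was lower in dorn1-1 than in wild-type ATP roots (7.63%). EDS1B was lower in dorn1-1 than in wild-type buffer roots (12.9% in both directions together). SGT1A passed for the difference in change, with the smaller change in dorn1-1 (2.68% in that direction). Of 9 coiled-coil receptor genes and partners, the other large receptor class, only CAR1 (AT1G50180) was measured, with a wild-type difference of 0.15 (adjusted p 0.452).

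Photosynthesis transcripts were bright in these arrays of tissue labelled as root, and they moved with some TIR genes. Of 10 shoot markers 3 were measured, RCA (which activates the carbon-fixing enzyme rubisco), LHCB4.1 (a light-harvesting protein) and PRK (a Calvin cycle kinase). Their mean was 11.27, 10.63 and 11.09 in dorn1-1 ATP roots, 11.89, 9.09 and 10.44 in dorn1-1 buffer roots, 11.98, 11.08 and 11.85 in wild-type ATP roots, and 10.54, 10.59 and 9.76 in wild-type buffer roots. It was higher in all 3 wild-type ATP arrays than in the wild-type buffer arrays, by 1.34 (two-sided exact permutation p 0.1, the smallest that 3 against 3 arrays allow). Between dorn1-1 and wild type in ATP it differed by -0.64 (exact permutation p 0.3). In bulk RNA, fewer cells of a type and less RNA per cell cannot be told apart.

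With the photosynthesis mean as a covariate, no TIR gene measured on its own probe set passed between ATP and buffer in the wild type (0.343% of all probe sets did). The difference of AT5G22690 was 0.85 (adjusted p 0.0973) and that of AT3G44630 was 0.83 (adjusted p 0.0983). The covariate was itself higher in all wild-type ATP arrays than in the wild-type buffer arrays. This fit therefore cannot tell the part of the covariate from that of ATP in the wild type. The differences of the other TIR genes named for large values were smaller with the covariate too. Among the short genes, AT1G66090 had 1.16 with the covariate and 1.87 without it, AT1G72900 had 0.77 and 1.52, AT1G72920 had 0.77 and 1.39, and AT1G72940 had 0.71 and 1.40. Among the receptor genes, AT5G58120 had 0.69 with the covariate and 1.36 without it, AT1G63750 had 0.37 and 0.99, and AT1G63880 had 0.15 and 1.25. Over all measured TIR genes the median difference hardly moved, at 0.18 with the covariate and 0.19 without it. Not every difference was smaller with the covariate. The short gene AT2G32140 had 0.68 with it (adjusted p 0.217) and 0.23 without it. The probe set AT5G41740/AT5G41750 still passed, at 1.39 (adjusted p 0.0458). Between dorn1-1 and wild type in ATP, 9 genes passed with the covariate, the 8 above and AT5G17680, beside 6.33% of all probe sets. Dorn1-1 buffer replicate 1, whose photosynthesis mean of 11.89 lay within the wild-type ATP range, read 6.03 for AT5G22690 and 6.23 for AT3G44630, below every wild-type ATP array. It read 6.25 for AT1G63880, within the wild-type ATP range of 5.90 to 6.36.

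**Figure D5:**
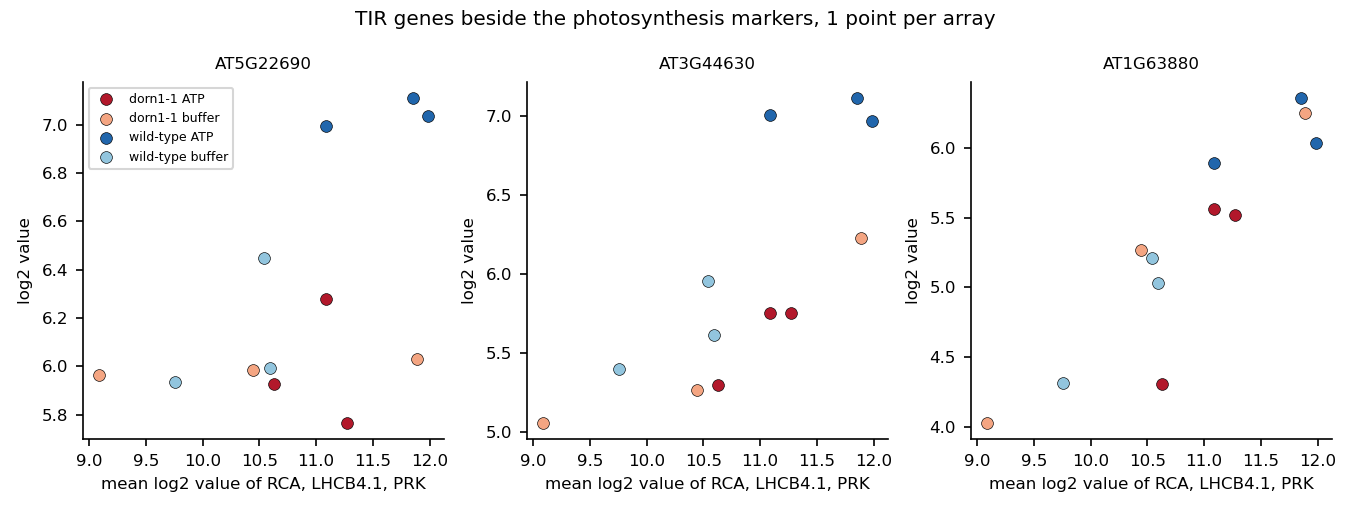
Log2 value of AT5G22690, AT3G44630 and AT1G63880 (vertical axes) against the mean log2 value of RCA, LHCB4.1 and PRK (horizontal axis), 1 point per array, coloured by group. On the horizontal axis the wild-type ATP points (11.08 to 11.98) do not overlap the wild-type buffer points (9.76 to 10.59). The 3 wild-type ATP points lie above all others for AT5G22690 and AT3G44630, while for AT1G63880 dorn1-1 buffer replicate 1, at 11.89 and 6.25, lies among them.

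Other measures also differed between wild-type ATP and buffer arrays. Of 14 root markers 2 were measured, the root hair expansin genes EXPA7 and EXPA18, whose mean was 5.82 to 6.43 in dorn1-1 ATP roots, 6.23 to 6.91 in dorn1-1 buffer roots, 5.88 to 6.46 in wild-type ATP roots and 6.56 to 7.08 in wild-type buffer roots. The wild-type difference was -0.68 (exact permutation p 0.1), and the difference between genotypes in ATP was -0.02 (exact permutation p 0.9). The 3′ minus 5′ signal of the GAPDH control, a measure of RNA integrity and labelling, differed by -0.34 between wild-type ATP and buffer (exact permutation p 0.1). It differed by -0.08 between genotypes in ATP (exact permutation p 0.6) and by -0.34 between genotypes in buffer (exact permutation p 0.2). Its mean was -0.67 in dorn1-1 ATP, -0.60 in dorn1-1 buffer, -0.60 in wild-type ATP and -0.25 in wild-type buffer roots. The part of these measures in the values of the TIR genes was not tested.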

How the data were processed

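Root RNA from 12 samples was read on one-colour arrays that hold 22810 probe sets. The log2 values used are those the authors deposited; the submitters' processing notes name RMA and affy, without versions. RMA evens out the arrays' distributions, which hides any shift common to most genes. No column was left unused (0 columns of other series).

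After 64 control probe sets were left out, 22746 were fitted (limma 3.58.1, R 4.3.3) with a mean for each group over 12 arrays, empirical Bayes moderation and Benjamini-Hochberg adjustment within each of 5 comparisons. The code was tested on simulated data. Single values per array had exact permutation tests (scipy 1.17.1). Figures used matplotlib 3.10.9 in Python 3.11.15. Genes came from the platform annotation, with 13513 probe sets of 1 gene, 503 of several and 8730 not listed; 13436 matched the RefSeq table of TAIR10.1, used for names and chromosomes only.

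The members, gene lists and tests were chosen with earlier results of these data known. Named were all genes that passed, the largest differences of each comparison, the highest and lowest means and the runs of neighbours. The replicate labels say biological, with nothing on shared batches; the values of same-numbered arrays did not deviate together in every pair, so no pairing was used. Alternatives were other scalings, a filter on dim probe sets, other moderation, array weights, a replicate block, fits of the compared groups alone, a photosynthesis covariate, and leaving out each array.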

Additional observations from a re-analysis of the deposited data

How the results depend on the processing

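Between ATP and buffer in the wild type, 2 TIR genes passed; the count was 19 with array weights, 12 with only the compared groups in the fit, 5 with a replicate block and 0 with the photosynthesis covariate, while 6203, 2506, 447 and 78 of the 22746 probe sets passed in the same fits, against 151. It ran from 0 (0.0264% to 0.492% of all probe sets) to 10 (10.2%) when 1 array was left out. Between dorn1-1 and wild type in ATP, 8 passed. The count was 5 with trend and robust moderation and 9 with the replicate block. In these fits 1551 and 1719 of the 22746 probe sets passed, against 1519. The TIR count ran from 1 (272 or 354 of all probe sets) to 10 (2643) when 1 array was left out. In buffer it was 0, and 3 with array weights (11.3% of all probe sets). The replicate block changed no other count by over 1.5 times; same-numbered arrays had correlations of their deviations from -0.28 to 0.56, so the numbers were not taken as pairs. The counts for dorn1-1 and for the difference in change were 0 in every setting run. The alternative with the dimmer probe set of a gene was not run, since no gene had 2. Of 3585 alternative values of named genes, 3321 kept their sign and side of the threshold, 50 passed only in the alternative and 55 no longer passed. The other 159 passed in neither fit and took the other sign, with sizes up to 0.48. Most of the 185 differences behind these values did not pass in the main fit. The total of 3321 therefore says little about how stable the passing ones were. The cause of the changed counts was not tested. A fit that leaves out an array also has fewer arrays. With 29 of 43 genes under the 40th percentile of signal, small differences of dim genes may not be detectable.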
